A study of Mus musculus with 9 samples.

Results

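Potassium channel genes were read as the genes of the Kcn families (symbols that begin with Kcn, subfamily letters and a number), in hippocampal RNA of 9 male mice. The array's annotation names 88 such genes, of 19505 named genes in all, and each is read by 1 probe set. All mice were of the strain C57BL6 by the labels and C57BL/6NCrSlc by the methods, and no transgene or treatment is named for them. The mice of p1 were Young7, Young19 and Young20 (young, normal cognition, 11 weeks), those of p2 were Old3, Old8 and Old18 (adult, normal cognition, 47 weeks), and those of p3 were Old2D, Old6D and Old11D (adult, cognitive decline, 47 weeks). The suffix D in a label was read as decline. The p3 mice were the adults ranked lowest in a combined score of Y-maze and open field behaviour. By the paper's discussion, the p2 mice were the adults ranked highest in it. A difference between p3 and p1 thus spans age as well as cognition. One between p3 and p2 spans the ends of the behavioural ranking at 1 age. Values are log2 signals from 1 array per mouse, and p-values measure the spread between 3 mice per group.

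Potassium channels let potassium leave or enter the cell and set the resting potential, the shape of the action potential and the rate of firing. Voltage-gated channels open on depolarization, calcium- and sodium-activated channels open when those ions enter, inward rectifiers and tandem-pore channels act near rest, and auxiliary subunits change the gating and surface delivery of the pore subunits. In the hippocampus, A-type voltage-gated channels limit the spread of signals in dendrites, M-type channels damp repeated firing, and inward rectifiers of astrocytes take up the potassium that active neurons release.

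By role, the 88 genes were 26 voltage-gated pore subunits, 10 modifier subunits that form no channel alone, 7 calcium- or sodium-activated channels (their relative Kcnu1 included), 14 inward rectifiers, 14 tandem-pore channels, 16 auxiliary subunits and Kcnq1ot1, a long noncoding RNA from the Kcnq1 locus. In the p2 columns, 15915 of 22206 values per mouse (71.7%) lie on a straight line by row number and were not used. This leaves 29 of the 88 genes with values in p2. These 29 are all on chromosomes 1 to 5 and hold 11 of the voltage-gated genes, 7 of the auxiliary, 3 each of the calcium- or sodium-activated, inward rectifier and tandem-pore genes, and 2 of the modifiers. Every statement on p2 is limited to them. RNA came from the whole dissected tissue, so fewer cells of a type and less RNA per cell cannot be told apart.

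Markers of excitatory neurons, dentate granule cells, CA pyramidal cells and glia lay above the background level defined below in every listed gene on the array. So did 10 of 11 choroid plexus, 9 of 10 thalamus and 3 of 5 medial habenula markers, so this level does not tell the tissues apart. Markers of neighbouring tissue differed between mice. Of 13 choroid plexus markers, 11 were on the array and 0 of these were at 0. The log2 of their summed signal was 13.04 to 19.09 in p1 and 10.52 to 19.22 in p3, with Young19 and Old11D far above the others. For the 10 thalamus markers the log2 of the summed signal was 12.52 to 13.06 in p1 and 12.38 to 16.28 in p3, and all 10 were highest in Old11D. Dentate granule cell markers also differed between mice. Among the p1 and p3 mice, Young7 was highest in 4 of 5 of them and lowest in 0, with a median shift of 1.06 from the other mice. Old11D was lowest in 3 of the 5 and highest in 0, with a median shift of -0.62. The part of these markers in the members' values was not tested. The calls that change without Young19 and Old11D together are given after those with all mice.

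The start regions of 4 genes are shown first, since the results below turn on them: Kcna4, Kcnj16 and Kcnmb2, the members higher in p3 past the study's threshold, and Kcnj2, which lies next to Kcnj16 with 0 listed genes between them. Kcnj11, the member lower past the threshold, is described by its values alone. Each sequence is the RefSeq plus strand of GRCm38.p6, 5′ to 3′, from 250 bases before to 50 after the annotated start, and capitals mark a GC box (GGGCGG), an E-box (CACGTG) or a CCAAT box (CCAAT), read on both strands. The windows are chr2:107290339-107290638 for Kcna4, chr11:110967783-110968082 for Kcnj16 (the first of 4 start windows of this gene), chr11:111065914-111066213 for Kcnj2 and chr3:31902453-31902752 for Kcnmb2.
Kcna4: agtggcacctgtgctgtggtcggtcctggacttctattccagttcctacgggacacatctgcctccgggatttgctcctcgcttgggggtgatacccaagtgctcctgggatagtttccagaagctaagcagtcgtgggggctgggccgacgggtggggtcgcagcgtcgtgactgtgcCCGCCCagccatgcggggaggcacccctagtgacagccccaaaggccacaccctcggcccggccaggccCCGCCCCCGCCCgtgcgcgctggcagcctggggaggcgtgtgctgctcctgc
Kcnj16: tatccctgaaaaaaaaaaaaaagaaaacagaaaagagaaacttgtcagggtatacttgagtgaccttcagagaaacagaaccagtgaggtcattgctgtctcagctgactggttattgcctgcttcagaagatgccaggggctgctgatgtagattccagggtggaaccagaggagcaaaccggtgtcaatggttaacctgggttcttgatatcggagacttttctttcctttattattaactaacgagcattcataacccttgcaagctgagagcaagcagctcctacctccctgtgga
Kcnj2: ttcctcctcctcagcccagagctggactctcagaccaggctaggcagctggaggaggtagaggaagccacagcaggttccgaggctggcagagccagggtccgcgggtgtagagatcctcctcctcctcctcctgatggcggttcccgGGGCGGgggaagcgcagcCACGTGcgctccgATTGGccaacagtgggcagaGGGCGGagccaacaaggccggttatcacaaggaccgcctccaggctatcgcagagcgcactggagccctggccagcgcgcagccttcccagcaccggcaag
Kcnmb2: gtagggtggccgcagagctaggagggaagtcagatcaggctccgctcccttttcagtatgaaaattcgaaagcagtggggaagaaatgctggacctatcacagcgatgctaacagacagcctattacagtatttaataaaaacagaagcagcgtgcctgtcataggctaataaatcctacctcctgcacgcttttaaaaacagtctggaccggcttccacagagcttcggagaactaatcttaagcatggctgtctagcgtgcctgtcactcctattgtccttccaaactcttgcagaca
The window of Kcna4 held 3 GC boxes and 20 CpG dinucleotides, and that of Kcnj2 held 2 GC boxes, 1 E-box, 1 CCAAT box and 18 CpG. Those of Kcnj16 and Kcnmb2 held 0 of these motifs and 3 and 9 CpG, against a median of 7 over all 32851 start windows. The GC content was 67.7% for Kcna4, 66.7% for Kcnj2, 44.3% for Kcnj16 and 47.7% for Kcnmb2, beside a median of 52.7%. The window of Kcnj2 thus had more CpG and a higher GC content than the 1 window read for Kcnj16. Over the 92 windows of the 67 members that matched, a GC box was in 47.8% (35.7% of all windows), an E-box in 7.61% (7.15%), a CCAAT box in 30.4% (37.4%), a TATA box (TATAAA) in 4.35% (13.6%) and a cAMP response element (TGACGTCA) in 0 of 92 (1.79%). These are matches of letters and describe no binding.

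Levels were compared with a background of genes that the hippocampus is not known to use, 1414 probe sets of vomeronasal and olfactory receptors, of which 95% had a mean log2 signal under 5.36 in the p1 and p3 mice. Of the 88 members, 65 lay above this level, and 61.7% of all probe sets did. Another 4 members lay within 0.3 below it and 4 of the 65 within 0.3 above it. Means ran from 2.86 for Kcne1 to 15.77 for Kcnab2. Probe sets differ in how well they bind their target, so these levels set no order between genes.

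**Figure D1:**
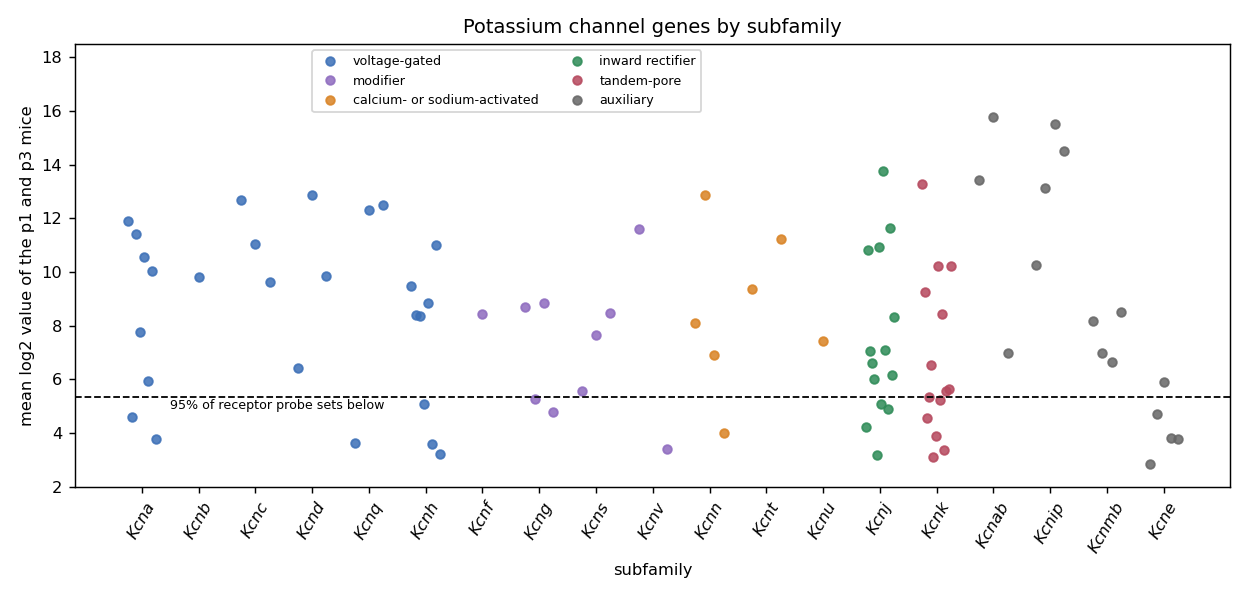
Mean log2 signal of the p1 and p3 mice (y axis) for each gene, by subfamily (x axis), with 1 point per gene and colours for roles. The noncoding RNA Kcnq1ot1 is not drawn, and the dashed line is the level that 95% of the receptor probe sets lie under. All Kcnip, Kcnab, Kcnmb, Kcnc and Kcnd genes lie above the line, and 1 of 5 Kcne genes does.

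In the subfamilies that build the known currents of hippocampal neurons, most or all genes lay above background, as did 61.7% of all probe sets. Among the voltage-gated genes, all 3 Kcnc genes and all 3 Kcnd genes (dendritic A-type channels) lay above it. Kcnc1 and Kcnc2 are fast delayed rectifiers of rapidly firing cells. Also above it were 6 of 8 Kcna genes (Shaker channels), 5 of 8 Kcnh genes and 2 of 3 Kcnq genes. The 2 Kcnq genes were Kcnq3 and Kcnq5, which carry the M-current, while Kcnq1, a channel of heart and inner ear, had a mean of 3.63. All 4 Kcnip genes (calcium sensors that bind Kcnd channels), all 4 Kcnmb genes (beta subunits of the large-conductance calcium-activated BK channel) and all 3 Kcnab genes (cytoplasmic subunits of Kcna channels) lay above it. Of 14 inward rectifiers 10 did, and of 14 tandem-pore channels 9. The median range over the 6 p1 and p3 mice was 0.80 on the log2 scale in the 65 members above background. In all probe sets above it, members included, the median range was 0.57. These ranges include the difference between groups, and the probe sets were not matched for level.

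Between p3 and p1, 3 of the 88 genes passed the threshold that the study set, more than a 1.5-fold difference together with p under 0.05 before adjustment. Of these, Kcna4 and Kcnj16 were higher in p3, and Kcnj11 was lower. That is 3.41% of the members, and the threshold was passed by 1.70% of all 22206 probe sets. At an unadjusted p under 0.05 alone there were 8 members (9.09%), 6 higher and 2 lower, against 5.71% of all probe sets (3.02% higher and 2.69% lower). The values of the 3 p3 mice and the 3 p1 mice did not overlap in 14 members (15.9%), 11 with all p3 mice higher and 3 with all lower, and did not overlap in 10.4% of all probe sets. After Benjamini-Hochberg adjustment in limma 0 members and 0 probe sets had an adjusted p under 0.05, and the smallest adjusted p among the members was 0.860. Most differences were small: 57 members differed by under 1.2-fold, and the median difference was 0.04 on the log2 scale, beside 0.003 over all probe sets, with 48 members higher and 39 lower in the mean. The count past the threshold was 5 without Young19, 7 without Old2D and 5 without both Young19 and Old11D, and the count at an unadjusted p under 0.05 was 4 without Young20 or without Old11D.

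**Figure D2:**
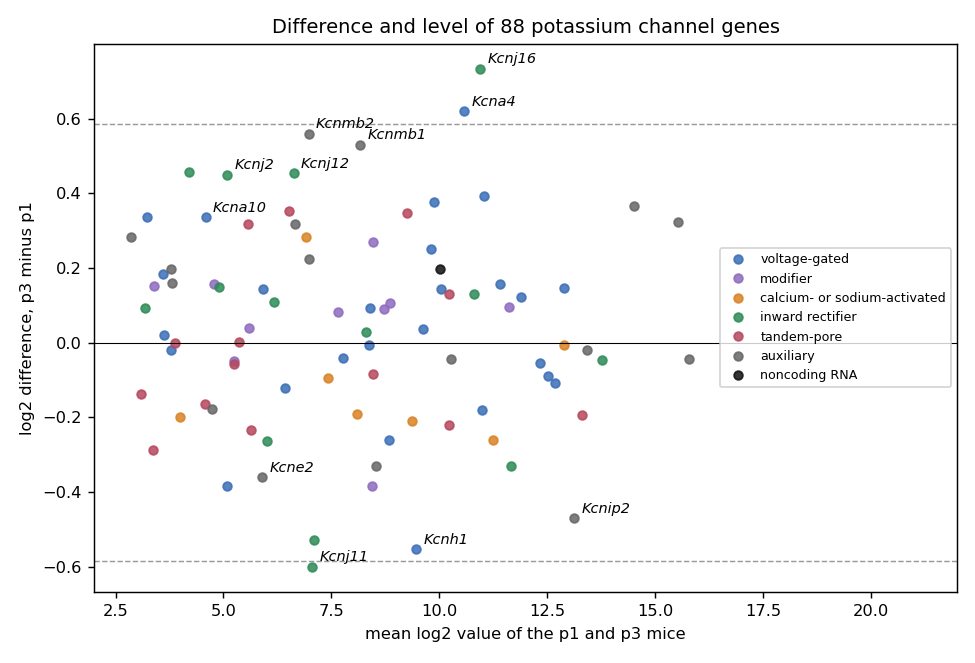
Difference of the p3 and p1 means on the log2 scale (y axis) against the mean log2 signal of the p1 and p3 mice (x axis) for the 88 genes, coloured by role, with dashed lines at a 1.5-fold difference. Kcnj16 and Kcna4 lie above the upper line and Kcnj11 just below the lower one, and no other member lies outside them.

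Kcna4, a Shaker channel of the fast-inactivating A-type in axons, had log2 signals of 10.43, 10.11 and 10.26 in Young7, Young19 and Young20. Its values were 10.86, 11.04 and 10.76 in Old2D, Old6D and Old11D, all above the p1 mice. The difference was 0.62 ± 0.19 (SE, n = 3 per group; a 1.54-fold higher signal; unadjusted p = 0.00779 and adjusted p = 0.860 in limma; exact permutation test, two-sided, p = 0.1, the smallest that 3 against 3 mice can give). In p2 the gene had 10.52, 10.49 and 11.11, also above every p1 mouse, and the difference of p2 from p1 was 0.44 ± 0.19, past an unadjusted p of 0.05 but under the 1.5-fold (adjusted p = 0.999). The p3 and p2 values overlapped and differed by 0.18 ± 0.19. Every adult mouse of both groups was thus above every young one in these arrays. The threshold between p3 and p1 was missed without Young19 or without Old6D, at 0.54 each. The p2 to p1 difference was 0.24 without Old18 and 0.36 without Young19, and it no longer had an unadjusted p under 0.05 without Young19, Young20, Old18 or Old2D, in a fit on those groups alone, in a model with no moderation or by the methods' t-test. Without Old18 the p3 to p2 difference was 0.38.

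The other Kcna genes did not follow it. Kcna1, the axonal low-threshold subunit, had 11.58 to 12.01 in p1 and 11.77 to 12.16 in p3, and Kcna2, its usual partner, had 11.28 to 11.38 in p1, 11.17 to 11.48 in p2 and 11.29 to 11.86 in p3. Both overlapped between the groups, and Old11D held the highest value of each. Kcna10 had an unadjusted p under 0.05 in both comparisons with p3, with 4.28 to 4.63 in p1, 4.35 to 4.45 in p2 and 4.59 to 4.92 in p3, but its mean lay below the level of the receptor probe sets, so its differences of 0.34 ± 0.15 are at background signal. They were 0.25 and 0.26 without Old11D, neither then at an unadjusted p under 0.05. The cytoplasmic partners of the family were close between groups: Kcnab1 differed by -0.02 and Kcnab2 by -0.04 between p3 and p1, and by -0.09 and -0.20 between p3 and p2.

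**Figure D3:**
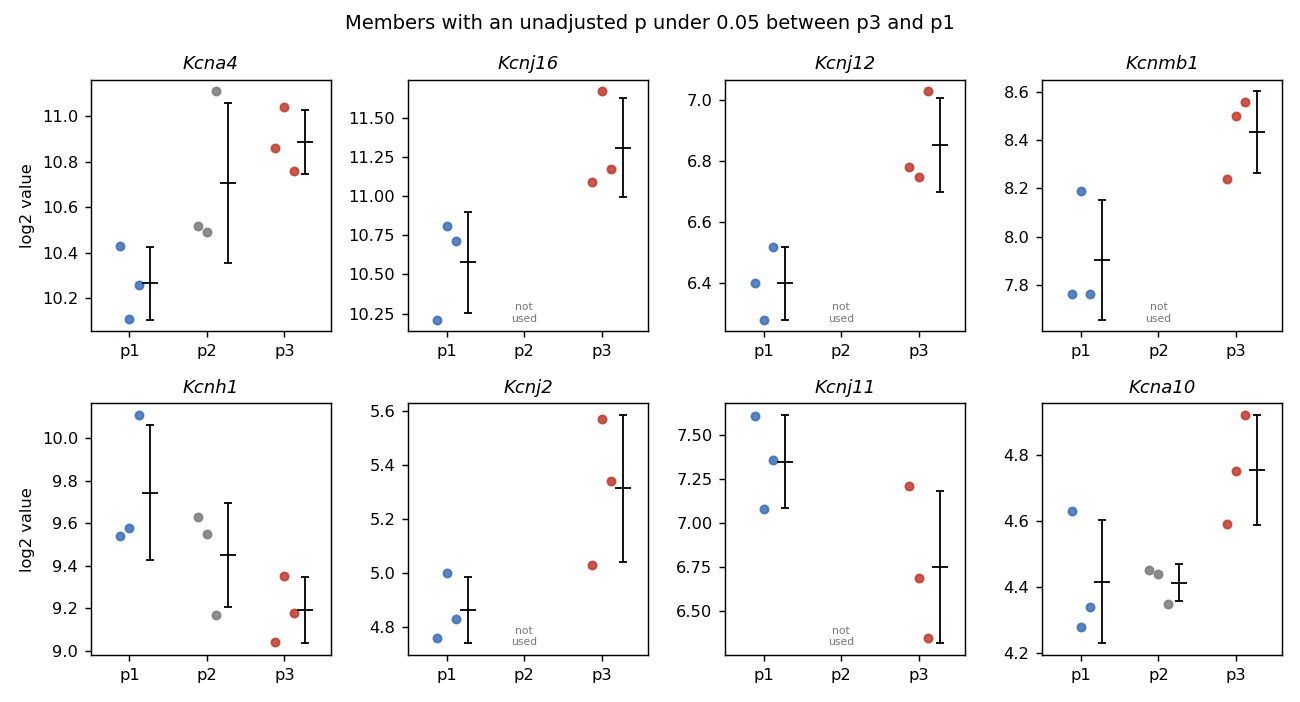
Log2 signal (y axis) of the 8 members with an unadjusted p under 0.05 between p3 and p1, with 1 point per mouse in each group (x axis), and the bar and whiskers at the mean ± SD of 3 mice. Not used marks genes whose p2 values lie on the filled line. Kcna10 and Kcnj11 overlap between p1 and p3, and the other 6 genes do not.

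Of the remaining voltage-gated genes, Kcnh1 was lower in p3. Kcnh1 (ether-à-go-go), a slow delayed rectifier of the brain, had log2 signals of 9.54, 9.58 and 10.11 in p1, 9.63, 9.55 and 9.17 in p2, and 9.04, 9.35 and 9.18 in p3. All p3 mice were below all p1 mice, while p2 lay between them in the mean and overlapped both. The p3 to p1 difference was -0.55 ± 0.19 (adjusted p = 0.860), the p3 to p2 difference -0.26 ± 0.19 and the p2 to p1 difference -0.29 ± 0.19. The first was -0.37 without Young20 and -0.48 without Old2D, in each case no longer at an unadjusted p under 0.05, and past the threshold without Young7, Young19 or Old6D. Its relative Kcnh7 differed by -0.18 between p3 and p1, with all groups overlapping. Kcnh2 (ERG) had 8.07 to 8.79 in p1, 7.76 to 8.43 in p2 and 7.86, 8.10 and 9.38 in p3, the last in Old11D.

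None of the dendritic A-type channel genes had an unadjusted p under 0.05 in any comparison. Kcnd2, the main pore subunit of pyramidal cell dendrites, had 12.57 to 13.10 in p1 and 12.94 to 12.99 in p3. Kcnd3 had 9.30, 9.68 and 10.05 in p1, 9.92, 10.18 and 10.11 in p2 and 9.91, 10.05 and 10.20 in p3, so that the adult groups were 0.39 ± 0.19 and 0.38 ± 0.19 above p1 in the mean, and overlapped it through Young20 alone. The SD of the p1 mice was 0.375 for Kcnd3, near the size of both differences (in limma, adjusted p = 0.999 for p2 and adjusted p = 0.870 for p3). Kcnb2, a delayed rectifier, had 9.43 to 9.92 in p1, 9.37 to 9.89 in p2 and 9.57 to 10.32 in p3. The M-current genes Kcnq3 and Kcnq5 differed by -0.05 and -0.09 between p3 and p1. Of the Kcnc genes, Kcnc1 differed by -0.11 and Kcnc4 by 0.04, and Kcnc2, found in fast-spiking interneurons, had 10.57 to 11.11 in p1 and 10.85 to 11.70 in p3, again highest in Old11D. In all, 15 of the 26 voltage-gated genes were higher and 11 lower in the mean of p3 than of p1. The modifiers showed no call in any comparison: 8 of 10 were higher in the mean of p3 than of p1 and 2 were lower, with a range of -0.38 for Kcnf1 to 0.27 for Kcns3.

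The inward rectifiers held 4 of the 8 members with an unadjusted p under 0.05 between p3 and p1, among 14 genes (28.6%, beside 5.71% of all probe sets), with Kcnj16, Kcnj12 and Kcnj2 higher and Kcnj11 lower. One of them, Kcnj2, lies at background signal. Kcnj16 forms channels with Kcnj10 in astrocytes. Kcnj16 had log2 signals of 10.21, 10.81 and 10.71 in p1 and 11.09, 11.67 and 11.17 in p3, so that every p3 mouse was above every p1 mouse. This was the largest difference of the 88 genes, 0.73 ± 0.22 (SE, n = 3 per group; a 1.66-fold higher signal; unadjusted p = 0.0105 and adjusted p = 0.860 in limma; exact permutation test, two-sided, p = 0.1). It stayed above 1.5-fold without Young19 (0.85), without Old11D (0.80) and without both (0.92), and fell short of it without Young7 or without Old6D (0.55 each).

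The partner Kcnj10, the main potassium uptake channel of astrocytes, differed less. Kcnj10 had 10.69, 11.03 and 10.51 in p1, 10.84, 10.78 and 10.76 in p2 and 10.48, 10.85 and 11.29 in p3, which overlap fully, and its p3 to p1 difference was 0.13 ± 0.21. Markers of astrocytes were also somewhat higher in p3, with 7 of 7 higher in the mean, 0 of them at an unadjusted p under 0.05 and a median difference of 0.12. The log2 of the summed signal of the 7 markers was 18.49 to 18.54 in p1 and 18.60 to 18.66 in p3. This sum is led by Aldoc, with 17.58 to 17.68 in p1 and 17.72 to 17.79 in p3, and by Slc1a2, which overlapped. Aldoc was the only 1 of the 7 without overlap, and Gfap differed by 0.01 and Gja1 by 0.05. The part of astrocyte markers in the Kcnj16 difference was not tested.

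Kcnj2 and Kcnj12 are classical strong inward rectifiers, which hold neurons near rest. Kcnj12 had 6.40, 6.28 and 6.52 in p1 and 6.78, 6.75 and 7.03 in p3, with no overlap and a difference of 0.45 ± 0.15 (adjusted p = 0.860). Without Young19 (0.39) or without Old11D it no longer had an unadjusted p under 0.05. Kcnj2, the neighbour of Kcnj16, had 4.76, 5.0 and 4.83 in p1 and 5.03, 5.57 and 5.34 in p3, also without overlap, with a difference of 0.45 ± 0.18 (adjusted p = 0.860), though its mean lay below the level of the receptor probe sets, and without Young7, Young20, Old6D or Old11D it had no unadjusted p under 0.05 (0.32 without Old6D). A further gene of this kind, Kcnj4, differed the other way: it had 7.49, 6.96 and 7.61 in p1 and 6.97, 7.27 and 6.24 in p3, with overlap, and a difference of -0.53 ± 0.29.

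Kcnj11, a pore subunit of the ATP-sensitive channels that link metabolism to excitability, had log2 signals of 7.61, 7.08 and 7.36 in p1 and 7.21, 6.69 and 6.35 in p3. The groups overlapped, since Old2D was above Young19. The difference was -0.60 ± 0.24 (SE, n = 3 per group; a 1.52-fold lower signal; unadjusted p = 0.0373 and adjusted p = 0.860 in limma; exact permutation test, two-sided, p = 0.2). The call was lost in a model with no sharing of variance between genes and without any 1 of Young7, Young20, Old6D or Old11D (-0.40 without Old11D). The other pore subunit, Kcnj8, known from vessel walls, had 6.04 to 6.18 in p1 and 6.18 to 6.27 in p3, and the sulfonylurea receptors that complete these channels, Abcc8 and Abcc9, differed by 0.18 and -0.06.

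Of the G protein-gated rectifiers, which answer inhibitory transmitters, Kcnj3 and Kcnj9 were close between groups. Kcnj3 had 13.54 to 13.97 in p1, 13.66 to 13.87 in p2 and 13.73 to 13.75 in p3, and Kcnj9 had 7.76 to 8.96, 8.23 to 8.50 and 8.20 to 8.52. Kcnj6 had 12.10, 11.71 and 11.65 in p1 and 11.45, 11.72 and 11.30 in p3, overlapping, with a difference of -0.33. None of these 3 genes reached an unadjusted p under 0.05. No inward rectifier was called between p3 and p2 or between p2 and p1, where 3 of the 14 have values.

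Between p3 and p2, the groups of 1 age, 1 of the 29 genes passed the study's threshold (3.45% of the members, against 1.54% of the 6291 probe sets measured), the beta subunit Kcnmb2. At an unadjusted p under 0.05 alone there were 4 members, all higher in p3 (13.8%): Kcnip3, Kcnmb3, Kcnmb2 and Kcna10. Of all probe sets, 5.33% had such a p, 2.86% higher and 2.46% lower. The groups did not overlap in 3 members (10.3%) and in 11% of all probe sets, so the share without overlap was near the background. The smallest adjusted p was 0.853, and the median difference of the members was 0.03 on the log2 scale, with 16 higher and 13 lower. Of the 4 members, 3 are auxiliary subunits, among 7 auxiliary subunits with values in p2. The count of 4 was 0 without Old3, 1 without Old8 or without Old6D and 2 without Young20 or without Old2D.

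Between p2 and p1, 0 of the 29 genes passed the study's threshold (1.29% of all probe sets did). Kcna4 alone had an unadjusted p under 0.05 (3.45% of the members, against 4.26% of all probe sets, 2.02% higher and 2.24% lower in p2) and alone had groups without overlap (3.45%, against 8.71%). The smallest adjusted p was 0.999. Differences ran from -0.31 for Kcnh7 to 0.44 for Kcna4, with a median of 0.05. Without Old18 or without Old2D 0 members had such a p, and without Young7 there were 2. Without Young19 and without Young20 there was 1, which was not Kcna4.

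With Young19 and Old11D both left out, 5 members passed the threshold between p3 and p1, and 2 of them, Kcna4 (0.60) and Kcnj16 (0.92), did so with all mice. The other 3 were Kcnh1 (-0.63), Kcnmb1 (0.61) and Kcnh5 (-0.76), a relative of Kcnh1 that had -0.26 with all mice and is named after its values were seen. Kcnj11 missed the threshold at -0.54, and Kcnj12 (0.30), Kcnj2 (0.51) and Kcna10 (0.19) no longer had an unadjusted p under 0.05. Between p3 and p2, Kcnmb2 (0.70) kept its call and Kcnip3 (0.47) its unadjusted p under 0.05, Kcnmb3 (0.30) and Kcna10 (0.26) lost theirs, and Kcnb2 (0.53) gained one. Between p2 and p1, Kcna4 (0.36) lost its p and Kcnh7 (-0.45) gained one.

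The beta subunits of the BK channel, which set its calcium sensitivity and inactivation, had no overlap between p3 and p1 in any of their 4 genes, as did 10.4% of all probe sets. Kcnmb1, best known from smooth muscle, had 7.76, 8.19 and 7.76 in p1 and 8.24, 8.50 and 8.56 in p3, with a difference of 0.53 ± 0.18 (adjusted p = 0.860). Kcnmb2, an inactivating subunit, had 6.62, 6.58 and 6.88 in p1 and 7.15, 7.57 and 7.04 in p3, a difference of 0.56 ± 0.26 (adjusted p = 0.861). Kcnmb3 had 6.25, 6.62 and 6.62 in p1 and 6.81, 6.67 and 6.96 in p3, a difference of 0.32 ± 0.16 (adjusted p = 0.870). In these 3 genes each p3 mouse was above each p1 mouse. Kcnmb4, the beta subunit most known from neurons, went the other way: it had 8.57, 8.42 and 9.07 in p1 and 8.35, 8.37 and 8.35 in p3, all p3 mice lower, with a difference of -0.33 ± 0.19 (adjusted p = 0.885). Of the 4 genes, Kcnmb1 alone had an unadjusted p under 0.05 in this comparison, which it lost without Young7, Young20 or Old11D. Kcnmb1 passed the threshold without Young19 (0.67) or without Old2D, and Kcnmb2 without Old11D (0.67).

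**Figure D4:**
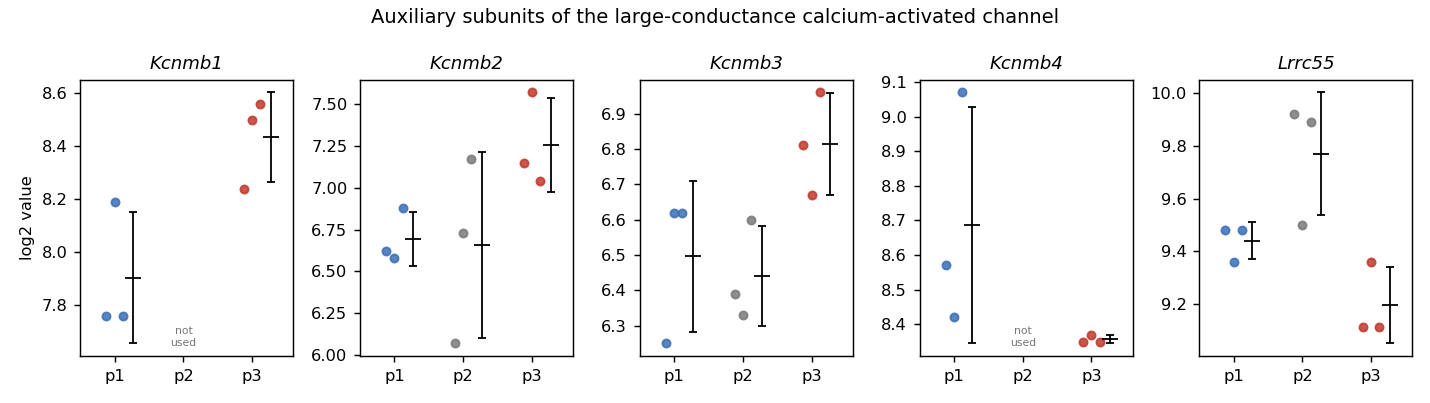
Log2 signal (y axis) of the 4 BK beta subunit genes and of Lrrc55, a gamma subunit, with 1 point per mouse in p1, p2 and p3 (x axis) and the mean ± SD of 3 mice beside it. Not used marks genes whose p2 values lie on the filled line. Kcnmb1, Kcnmb2 and Kcnmb3 are higher in every p3 than in every p1 mouse, and Kcnmb4 and Lrrc55 are not.

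Kcnmb2 and Kcnmb3 also have values in p2. Kcnmb2 had 6.07, 6.73 and 7.17 there, a wide spread that overlapped p3 through Old18, and its p3 to p2 difference was 0.60 ± 0.26 (SE, n = 3 per group; a 1.51-fold higher signal; unadjusted p = 0.0434 and adjusted p = 0.853 in limma; exact permutation test, two-sided, p = 0.3). The call held without Old18 (0.85) or without Old11D (0.70) and was lost without any 1 of the other 7 mice, with 0.30 without Old3 and 0.44 without Old6D. It was also lost in a fit on both groups alone, in the model with no moderation, by the methods' t-test and with median centring. Kcnmb3 had 6.39, 6.33 and 6.60 in p2, below every p3 mouse, with a difference of 0.37 ± 0.16 (adjusted p = 0.853) that had no unadjusted p under 0.05 without Old3, Old8, Old2D or Old11D (0.30 without Old11D). For both genes p2 and p1 were close, at -0.04 and -0.06. Markers of mural cells, the smooth muscle cells and pericytes of vessels, were 5 of 5 on the array with 0 at 0. The log2 of their summed signal was 13.94 to 14.34 in p1 and 13.93 to 14.19 in p3, a sum led by Vtn (13.61 to 14.11). Of the 5, 3 were higher in the mean of p3 than of p1. Rgs5, the pericyte marker and the only 1 of them with values in p2, had 10.84, 10.76 and 10.89 in p1, 10.55, 11.08 and 10.74 in p2 and 10.91, 11.48 and 11.28 in p3. It was higher in every p3 than in every p1 mouse, by 0.39 ± 0.19, and by 0.43 ± 0.19 than p2 with overlap (adjusted p = 0.853), while the smooth muscle marker Acta2 differed by -0.51 between p3 and p1. The part of mural cells in the Kcnmb values was not tested.

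The gamma subunit gene Lrrc55 is a partner of the same channel that the Kcn rule does not include. It had 9.48, 9.36 and 9.48 in p1, 9.92, 9.50 and 9.89 in p2 and 9.11, 9.36 and 9.11 in p3. Every p3 mouse was below every p2 mouse, and the difference of -0.58 ± 0.15 (a 1.49-fold lower signal, adjusted p = 0.853) was just short of the 1.5-fold. Lrrc55 was thus lower in p3 than in p2, where Kcnmb2 and Kcnmb3 were higher. Over the whole list of 21 partner proteins (scaffolds, accessory and secreted proteins), 1 was at an unadjusted p under 0.05 between p3 and p1, the synaptic adhesion protein gene Adam23, which was higher in p3 by 0.37. Of the 11 with values in p2, Lrrc55 alone had such a p between p3 and p2, and 0 did between p2 and p1. The median difference of the list was 0.03, 0.01 and 0.00 in these comparisons.

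The Kcnip genes encode calcium sensors that bring the A-type Kcnd channels to the surface, and they did not differ in 1 direction. Kcnip3, which is also known as a calcium-dependent repressor of transcription, had log2 signals of 15.40, 15.33 and 15.39 in p1, 15.04, 15.37 and 15.46 in p2 and 15.57, 15.95 and 15.57 in p3. Every p3 mouse was above every mouse of the other groups, by 0.32 ± 0.16 in the mean against p1 (adjusted p = 0.870) and 0.41 ± 0.16 against p2 (adjusted p = 0.853). The latter was 0.28 without Old3 or without Old6D, then with no unadjusted p under 0.05. Kcnip2 had 13.51, 13.29 and 13.27 in p1 and 13.25, 12.99 and 12.42 in p3, all lower, with a difference of -0.47 ± 0.22 (adjusted p = 0.868). The gap between the groups was narrow, 13.27 against 13.25, and without Old11D the difference was -0.24. Kcnip4 had 14.07 to 14.69 in p1, 14.22 to 14.88 in p2 and 14.45 to 14.86 in p3, and Kcnip1 differed by -0.04 between p3 and p1.

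Calcium- and sodium-activated pore subunits gave no call. Between p3 and p1, 6 of the 7 were lower in the mean and 1 was higher, with a median difference of -0.19 and 0 at an unadjusted p under 0.05. The small-conductance channel genes Kcnn1 and Kcnn2, which carry part of the afterhyperpolarization that follows a spike, differed by -0.19 and -0.01, and Kcnn3 by 0.28. The sodium-activated Kcnt1 had 9.19, 9.34 and 9.90 in p1, 8.80, 9.27 and 9.43 in p2 and 9.30, 9.23 and 9.27 in p3, and Kcnt2 differed by -0.26 between p3 and p1. Values of all of these overlapped between groups.

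The tandem-pore channels, which carry the resting leak, likewise held 0 members at an unadjusted p under 0.05 in each comparison, with 5 higher and 8 lower in the mean of p3 than of p1. Kcnk1 had 13.18 to 13.61 in p1 and 13.07 to 13.47 in p3. The mechanosensitive Kcnk2 had 10.26 to 10.40, 10.14 to 10.41 and 9.85 to 10.45 in p1, p2 and p3, and its relative Kcnk10 had 8.71 to 9.42 in p1 and 9.28 to 9.59 in p3. The acid-sensitive channel genes Kcnk3 and Kcnk9 differed by -0.06 and 0.13 between p3 and p1. Kcnk15 alone in this family had groups without overlap, with 6.24, 6.34 and 6.46 in p1 and 6.67, 6.51 and 6.92 in p3, while its p2 values of 6.93, 6.53 and 6.19 overlapped both. The noncoding RNA Kcnq1ot1 had 9.76, 9.98 and 10.01 in p1 and 10.14, 10.15 and 10.05 in p3, a difference of 0.20 with no overlap.

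Some members stood apart in single mice rather than by group. Kcne2, a single-span subunit that is abundant in choroid plexus epithelium, had a log2 signal of 9.53 in Young19 and 8.49 in Old11D, and 4.15 to 4.54 in the other 4 mice of p1 and p3. The 2 high mice were those with high choroid plexus markers: Ttr, the transthyretin gene of that epithelium, had 19.05 and 19.19 there and 9.74 to 14.67 in the others. The p3 to p1 difference of Kcne2 was -0.36 ± 1.55, and it was -0.02 without both mice. Kcne2 was the only 1 of 5 Kcne genes above the receptor level, and in the other 4 mice it lay below that level.

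**Figure D5:**
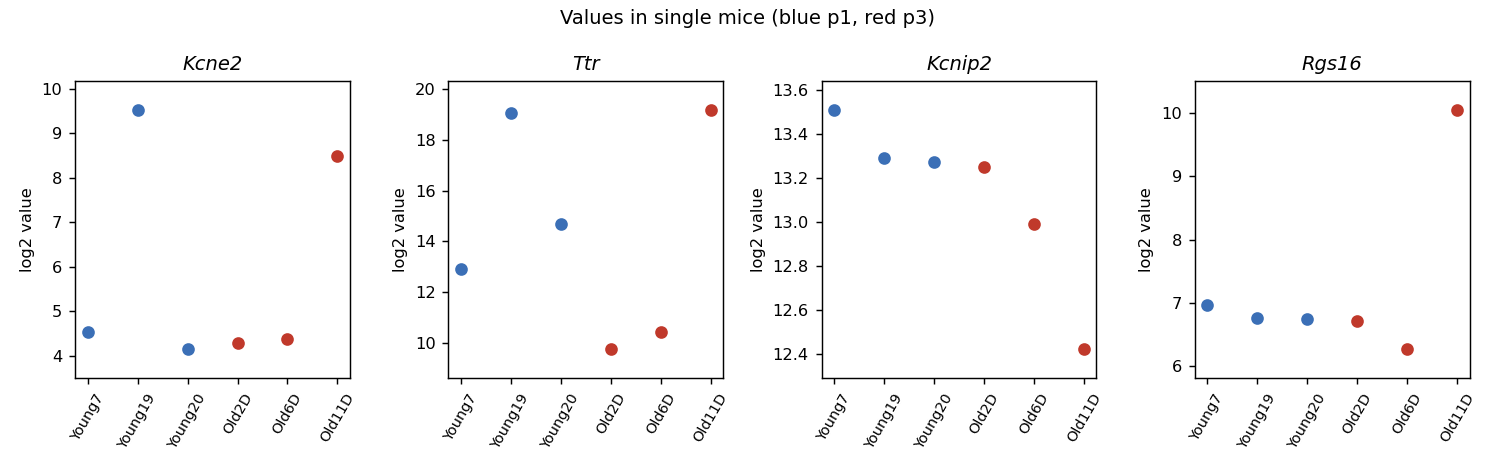
Log2 signal (y axis) of Kcne2 and Kcnip2 and of the markers Ttr (choroid plexus) and Rgs16 (thalamus) in each p1 mouse (blue) and p3 mouse (red) on the x axis, the genes chosen after their values were seen. Kcne2 is high in the same mice as Ttr, and Old11D has the highest Rgs16 and the lowest Kcnip2.

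Several mice were often the extreme one. Among the 65 members above background Old11D had the highest value of the p1 and p3 mice in 14 and the lowest in 13, Young7 in 15 and 12, Young19 in 5 and 23, Young20 in 16 and 5, Old6D in 13 and 2, and Old2D in 1 and 7. Old11D was thus no more often extreme than Young7 or Young19. High members of Old11D included Kcnh2, Kcnc2 and Kcna2, named above, and its low ones Kcnip2, Kcnj4, Kcnj11, Kcnn2 (12.60 against 12.87 to 13.08 in the other mice), Kcnt2 (10.80 against 11.26 to 11.55) and Kcnq5 (12.01 against 12.32 to 12.89). In the same mouse all 10 thalamus markers were the highest of 6 (Rgs16 at 10.05 against 6.27 to 6.97), and all 4 excitatory neuron markers were the lowest. The part of tissue composition in these values was not tested. Young19 had a median shift over the 65 members of -0.15 from the mean of the other mice.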

How the data were processed

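The deposited log2 values of 22206 probe sets are the authors' output of the Transcriptome Analysis Console, which both the methods and the submitters' processing notes name. For background correction and probe summary, the method was not given in the sources used here. Values of the p2 columns with more than 2 decimals follow the line of the earlier values (largest gap 5e-10) and were set to missing. Of the probe sets, 19572 have 1 gene symbol in the platform annotation and 2634 have none, and symbols were checked by Entrez ID. The members and lists were chosen with earlier results of these data known, and 1 gene whose symbol fits the pattern is not reported here.

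All 9 mice entered 1 linear model per probe set (lmFit and eBayes, limma 3.58.1, R 4.3.3), which had 6 residual degrees of freedom, and 4 for probe sets without p2 values. Adjustment followed Benjamini-Hochberg across all probe sets of each comparison. The genes named are 42 known by role in the hippocampus (38 of them members), members past the threshold, the 10 members with the smallest p in each comparison, and partner genes at an unadjusted p under 0.05, 46 members in all. Further members are named as extremes of a range or for groups without overlap. The alternatives tried were a fit on only the pair of groups, a one-way model with no moderation, the methods' t-test, trended and robust eBayes, median centring, quantile normalization, a minimum mean log2 value of 6, averaging the probe sets of a gene, another background percentile, and leaving out mice. Averaging the probe sets of a gene could not change a member's value or difference, since each member is read by 1 probe set. The fit was tested on simulated data. Start windows are from RefSeq, GRCm38.p6. Plots were made in Python 3.11.15 with matplotlib 3.10.9.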

Additional observations from a re-analysis of the deposited data

How the results depend on the processing

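With 3 mice per group and no adjusted p under 0.05, each call rests on few arrays. Leaving out each mouse in turn, the count of members past the threshold between p3 and p1 was 2 to 7 (3 with all mice), and at an unadjusted p under 0.05 it was 4 to 10 (8 with all). Between p3 and p2 these counts were 0 to 1 (1 with all) and 0 to 4 (4 with all), and between p2 and p1 the count at an unadjusted p under 0.05 was 0 to 2 (1 with all). Without both Young19 and Old11D, the p3 to p1 counts were 5 and 5, and with the methods' t-test 5 members had an unadjusted p under 0.05. Between p3 and p2, the count past the threshold was 0 in a fit on the groups compared, a one-way model, the methods' t-test and median centring, and the count at an unadjusted p under 0.05 was 2 in the fit on the groups compared, the methods' t-test and the trended and robust fit. Between p2 and p1 the latter count was 0 in the fit on the groups compared, the one-way model and the methods' t-test, and 2 in the trended and robust fit. Under the other settings these counts were within 1.5 times. Of 96 differences of named genes, 44 had another sign under at least 1 setting. With all mice these were at most 0.22 in size, apart from -0.36 for Kcne2. Of them, 1 was among the tested ones, that of Kcnc4 between p3 and p2, which was -0.31 to 0.005 with 1 mouse left out (0.005 without Old11D) and 0.005 without both mice. Of 30 tested named differences, 20 kept their sign and their side of the threshold under every setting and 10 did not. The 20 were all short of the threshold with all mice. Those past it with all mice were Kcna4, Kcnj16 and Kcnj11 between p3 and p1 and Kcnmb2 between p3 and p2. Each of these missed it under at least 1 setting. The causes were not tested. No paired analysis was possible because the groups share no mouse numbers.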

Other observations

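Other genes of potassium handling were read from lists outside the Kcn families. Of 5 genes of the HCN channels, which carry a mixed sodium and potassium current near rest, and their partner, 4 were on the array. None of these 4 had an unadjusted p under 0.05 in limma in any comparison, and all 4 were highest in Old11D among the p1 and p3 mice. Hcn2, the main subunit among these in the hippocampus, had log2 signals of 10.33, 10.43 and 10.43 in p1 and 10.15, 10.22 and 10.67 in p3.

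Of 11 potassium pump and transporter genes, 7 were on the array, 6 of them higher in the mean of p3 than of p1, and 0 had an unadjusted p under 0.05. Slc12a2, a cotransporter of sodium, potassium and chloride, had 11.78, 12.80 and 12.02 in Young7, Young19 and Young20 and 11.71, 11.97 and 13.19 in Old2D, Old6D and Old11D, so its high mice were those with the high Kcne2 and Ttr values. Slc12a5, the neuronal potassium and chloride exporter, had 12.01 to 12.40 in p1, 12.21 to 12.34 in p2 and 12.25 to 12.40 in p3, with all groups overlapping.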
